A study of Mus musculus with 18 samples.

Results

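Clec4a4 and 9 related C-type lectin receptor genes of the mouse were described in small-intestinal eosinophils. The members were the genes of the deposited expression table whose symbol is Clec4a4, Clec4a2, Clec4a1, Clec4a3, Clec4b1, Clec4n, Clec4d, Clec4e, Clec7a or Clec12a. All 10 were found among the 22708 genes of the table. Clec4a4 was selected on its measured difference between wild-type and Ahr-/- eosinophils, among the largest of the table, so its values are a description with no test in that contrast and in the others that use those samples to compare genotypes. The other 9, called its relatives here, entered by name, in a list made with earlier results of these data known.

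C-type lectin receptors are transmembrane proteins with a lectin-like domain that bind sugars, lipids or proteins of microbes and of damaged cells. Clec4a4 (DCIR2, the antigen of the 33D1 antibody on a subset of dendritic cells) and Clec4a2 (DCIR1) carry an inhibitory ITIM motif in the cytoplasmic tail and can recruit phosphatases. Clec4n (Dectin-2), Clec4d (MCL) and Clec4e (Mincle) signal through the adaptor Fcer1g to the kinase Syk and the scaffold Card9, and Clec7a (Dectin-1), the beta-glucan receptor, reaches the same pathway through its own tail. AHR, the aryl hydrocarbon receptor, switches on genes when dietary or microbial compounds bind it, and AHRR is its repressor and itself a target gene.

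The study sequenced bulk RNA from small-intestinal eosinophils sorted as CD11b+MHC-II-SiglecF+SSChi cells. There were 6 samples of each of 3 genotypes on the C57/BL6 strain, labelled wildtype (WT), Ahr knockout (Ahr-/-) and Ahrr knockout (Ahrr-/-), each with 3 males (M1 to M3) and 3 females (F1 to F3). The mice were untreated and 6 to 14 weeks old, a range stated for all experiments together with ages matched within 3 weeks in each, and no age is given for single samples. The paper's list of mice does not name Ahrr knockouts, so this age range is not stated for those 6 samples. How the Ahrr knockout was made is not given in the sources used here. WT and Ahr-/- mice were neither littermates nor cohoused, so litter and housing cannot be told apart from genotype. WT libraries were shallower: total gene counts ran from 3842977 to 8149200 in WT, from 6581818 to 10284124 in Ahr-/- and from 8788867 to 12046933 in Ahrr-/- samples. In WT F3 and Ahr-/- F3, 20244 and 19694 genes had a count, against 15146 to 17236 in the other 16 samples.

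The genotype labels were compared with the genes they name and with AHR targets. Ahrr was at 1053 normalized counts in WT (mean, SD 154, n = 6), 2.16 in Ahr-/- (SD 3.63, n = 6) and 1326 in the samples labelled Ahrr-/- (SD 382, n = 6). The whole-gene level of Ahrr was thus not lower in the samples that carry the Ahrr-/- label, and they are called samples labelled Ahrr-/- throughout. The AHR targets Cyp1b1, a cytochrome P450, Tiparp, an ADP-ribosyltransferase that restrains AHR, and Nqo1, a quinone reductase, were lower in all 6 Ahr-/- samples than in every WT sample. Their mean normalized counts in Ahr-/- and WT were 2.60 and 714 for Cyp1b1, 852 and 5619 for Tiparp, and 37.0 and 254 for Nqo1. The Ahr transcript itself was at 22730 normalized counts in Ahr-/- (SD 3342, n = 6) and 15200 in WT (SD 4379, n = 6), and a whole-gene count does not check a knockout whose deleted part is not known.

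The eosinophil label was compared with 10 marker genes. Alox15, a lipoxygenase, was the most abundant, at 16772 normalized counts in WT, and the surface markers Ccr3, Il5ra and Siglecf stood at 12434, 2133 and 2036. The granule genes Epx and Ear1 were low, at 10.9 and 6.11 normalized counts in WT, and Ear6 averaged 0.344. Marker lists of 7 other cell types also had counts, with Csf1r at 595, Cd74 at 895, Cxcr2 at 500, Kit at 90.7, Jchain at 720 and Lyz1 at 3456 normalized counts in WT as the gene of the macrophage, dendritic-cell, neutrophil, mast-cell, B-cell and epithelial lists that was most abundant over all 18 samples. In WT alone the epithelial Muc2 was as high as Lyz1, at 3475. No gene of any list was at 0 in all 18 samples, while Elane, Tpsb2, Fcer1a, Ms4a2, Gata3 and Ncr1 averaged below 1. In bulk samples, fewer cells of a type and less RNA per cell cannot be told apart.

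**Figure D1:**
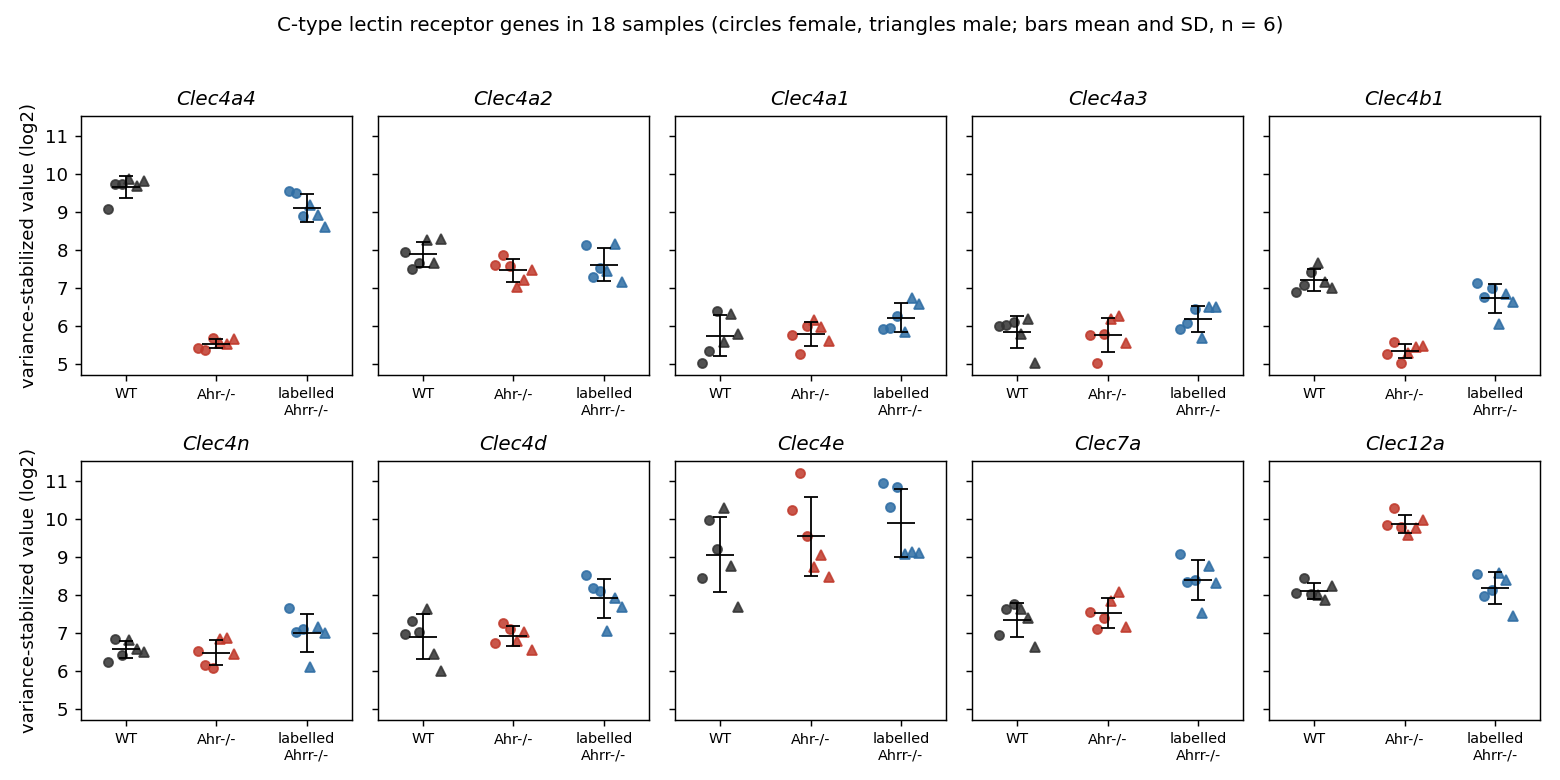
Variance-stabilized value (log2 scale, vertical axis) of each of the 10 receptor genes in every sample, by genotype, with circles for females and triangles for males and bars for the mean and SD of 6 samples. Clec4a4 and Clec4b1 lie low in all 6 Ahr-/- samples, at 5.36 to 5.67 and 5.02 to 5.56, and Clec12a lies high there, at 9.60 to 10.29.

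Values are given on the authors' variance-stabilized log2 scale and as normalized counts recovered from it. A gene without a read sits at 5.02 on that scale, its lowest value. A gene was tested where its mean over the compared samples was at least 1 above that lowest value. By this rule 8 of the 10 members passed in each genotype comparison and Clec4a1 and Clec4a3 did not. Against Ahr-/- samples Clec4b1 passed only through the groups in which it is high, since its mean in Ahr-/- samples, 5.34, lies below the minimum of 6.02. Its adjusted p in those comparisons is therefore given from the fit without a minimum, and it is left out of counts of relatives called.

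Clec4a4 (Entrez Gene 474145, GRCm38 chr6:122990367-123024421, plus strand) ran from 9.07 through a median of 9.74 to 9.87 in the 6 WT samples. In the 6 Ahr-/- samples it ran from 5.36 through 5.53 to 5.67, which is 2 to 8 counts a sample and 28 counts in all 6. In the 6 samples labelled Ahrr-/- it ran from 8.61 through 9.05 to 9.54. Every Ahr-/- sample lay below every sample of the other genotypes, while the WT samples and those labelled Ahrr-/- overlapped. Mean normalized counts were 756 in WT (SD 144, n = 6), 4.22 in Ahr-/- (SD 1.90, n = 6) and 505 in samples labelled Ahrr-/- (SD 145, n = 6), a 179-fold higher mean in WT than in Ahr-/-. The difference of WT minus Ahr-/- was 4.13 on the variance-stabilized scale (SE 0.13), the 2nd in size of the 11346 genes tested, after Ahrr at 4.83. That scale compresses low counts, and on log2 of the normalized count plus 1 the same difference was 7.24.

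Clec4a2, the other ITIM-bearing DCIR gene, ran from 7.51 through 7.80 to 8.29 in WT, from 7.03 through 7.53 to 7.87 in Ahr-/- and from 7.16 through 7.48 to 8.17 in samples labelled Ahrr-/-. All genotypes overlapped. Its coding sequence is the closest to that of Clec4a4 among the members, with 86.6% of 704 aligned bases identical. Reads can therefore be shared between the genes: 89 of the 702 different 75-base words in Clec4a4 transcripts, or 12.7%, also occur in Clec4a2, and in no other gene. Of the 2990 words of Clec4a2, 97 or 3.24% occur in Clec4a4 or Clec4b1. The word length is the shortest read the labels name, and how the aligner divided shared reads was not tested.

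Clec4a1 and Clec4a3, the remaining genes of the DCIR group, had 0 to 66 counts and 0 to 59 counts a sample. Mean normalized counts of Clec4a1 were 12.5 in WT (SD 13.6), 10.7 in Ahr-/- (SD 7.17) and 26.2 in samples labelled Ahrr-/- (SD 17.1). Those of Clec4a3 were 13.5 (SD 7.82), 11.6 (SD 9.91) and 24.4 (SD 13.4) in the same order, n = 6 each. All genotypes overlapped in both genes. When the minimum mean was dropped, limma called no genotype difference in either, with adjusted p from 0.157 to 0.951.

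Clec4b1 (Entrez Gene 69810, GRCm38 chr6:123049962-123071555, plus strand), a receptor of the DCAR type that couples to Fcer1g, lies next to Clec4a4 on the chromosome. It ran from 6.89 through 7.11 to 7.67 in WT, from 5.02 through 5.37 to 5.56 in Ahr-/- and from 6.04 through 6.80 to 7.12 in samples labelled Ahrr-/-. As for Clec4a4, all 6 Ahr-/- samples lay below all others, with 0 to 5 counts each and 14 in all. Mean normalized counts were 92.0 in WT (SD 30.2, n = 6), 2.07 in Ahr-/- (SD 1.70, n = 6) and 54.4 in samples labelled Ahrr-/- (SD 22.5, n = 6). The level in WT was 44.4-fold that in Ahr-/-.

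The bases before the start of Clec4b1 are shown because it is the relative whose values fall with those of Clec4a4, and those of Clec4e because they hold the motif searched. RefSeq promoters on GRCm38.p6 were matched for 8 of the 10 members, and Clec4a4 and Clec4n had no entry. The motif was GCGTG, the core letters of the AHR response element, on both strands of the 250 bases before the start, and the longer TNGCGTG, which contains it. Capitals mark GCGTG in the sequences, which are written 5′ to 3′ on the gene's strand.
Clec4b1, chr6:123049712-123049961, plus strand: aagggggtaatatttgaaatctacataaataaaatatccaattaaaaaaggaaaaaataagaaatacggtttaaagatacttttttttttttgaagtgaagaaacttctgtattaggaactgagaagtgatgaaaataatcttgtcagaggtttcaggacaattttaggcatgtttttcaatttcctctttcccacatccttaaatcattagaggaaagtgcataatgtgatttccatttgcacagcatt
Clec4e, chr6:123289872-123290121, minus strand: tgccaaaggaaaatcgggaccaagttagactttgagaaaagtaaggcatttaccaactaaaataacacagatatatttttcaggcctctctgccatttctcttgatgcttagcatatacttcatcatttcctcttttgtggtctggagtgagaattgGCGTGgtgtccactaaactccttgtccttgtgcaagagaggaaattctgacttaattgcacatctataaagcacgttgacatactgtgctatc
The Clec4b1 window holds no GCGTG. The Clec4e window holds 1, at 93 bases before the start and within a TNGCGTG, and Clec4a3 has 1 at 158 bases before the first of its 2 RefSeq starts and none before the second. GCGTG occurs in 28.2% of all 32851 RefSeq mouse promoters of the same length and TNGCGTG in 4.10%. A match in these letters is a description of the window and not a measured binding site.

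The activating receptors of the Dectin-2 group differed in level and in spread. Clec4n, which binds fungal mannans, ran from 6.25 through 6.54 to 6.84 in WT, from 6.07 through 6.49 to 6.87 in Ahr-/- and from 6.11 through 7.07 to 7.65 in samples labelled Ahrr-/-. Clec4d, a receptor for mycobacterial glycolipid that pairs with Clec4e, ran from 5.9999 through 7.01 to 7.64 in WT, from 6.55 through 6.90 to 7.27 in Ahr-/- and from 7.05 through 8.02 to 8.53 in samples labelled Ahrr-/-. Clec4e, the receptor for the same glycolipid, ran from 7.67 through 8.995 to 10.31 in WT, from 8.47 through 9.31 to 11.22 in Ahr-/- and from 9.10 through 9.72 to 10.96 in samples labelled Ahrr-/-. For each of these 3 genes all genotypes overlapped, and 5 of the 6 samples labelled Ahrr-/- lay above every WT sample for Clec4n and for Clec4d, while for Clec4n the last of them lay below every WT sample. Clec4e had the widest spread of the 10 members, with an SD of 0.98 in WT, 1.03 in Ahr-/- and 0.90 in samples labelled Ahrr-/-.

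Clec7a ran from 6.64 through 7.51 to 7.76 in WT, from 7.11 through 7.48 to 8.09 in Ahr-/- and from 7.52 through 8.38 to 9.08 in samples labelled Ahrr-/-, with 5 of the last 6 above every WT sample. Clec12a (Entrez Gene 232413, GRCm38 chr6:129349783-129365303, plus strand), an inhibitory receptor known for sensing uric acid crystals of dead cells, went the other way from Clec4a4. It ran from 7.88 through 8.04 to 8.45 in WT, from 9.60 through 9.82 to 10.29 in Ahr-/- and from 7.45 through 8.27 to 8.58 in samples labelled Ahrr-/-. All 6 Ahr-/- samples lay above all 12 others. Mean normalized counts were 218 in WT (SD 40.6, n = 6), 887 in Ahr-/- (SD 164, n = 6) and 240 in samples labelled Ahrr-/- (SD 79.9, n = 6), so that Ahr-/- samples held 4.07-fold the WT level.

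Levels were compared between genes as normalized counts per kilobase of exon, over the union of the exons of all annotated transcripts of a gene. That length exceeds the longest transcript most for Clec12a, at 5528 against 3233 bases, while Clec4e has 4965 against 4804 and Clec4a4 has 776 by either measure. The order under the longest transcript was not tested. In WT, Clec4a4 stood first at 975 (SD 185, n = 6), and its range did not overlap that of the next gene, Clec4b1, at 117 (SD 38.5). Clec4e at 117 (SD 82.8), Clec4a2 at 61.9, Clec4d at 45.6, Clec7a at 41.4, Clec12a at 39.4 and Clec4n at 29.6 followed, each but Clec4n overlapping the next. Clec4a3 at 10.1, without overlap with Clec4n, and Clec4a1 at 8.05 came last. In Ahr-/- samples the order of these levels was led by Clec4e at 178 (SD 155) and Clec12a at 160 (SD 29.6), whose ranges overlapped, and Clec4a4 at 5.44 (SD 2.44) and Clec4b1 at 2.64 (SD 2.17) were last of the 10. In samples labelled Ahrr-/-, Clec4a4 was again first at 651 (SD 186), without overlap with Clec4e at 214 (SD 135), and Clec4d at 120 and Clec7a at 112 came next, their ranges overlapping.

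The comparison of WT with Ahr-/- asked which receptors differ in level between eosinophils of these genotypes. Clec4b1 fell and Clec12a rose in Ahr-/- eosinophils, and no call was made for the other 5 relatives tested. The difference of WT minus Ahr-/- was 1.86 for Clec4b1 (SE 0.14, limma adjusted p = 2.99e-06 without a minimum mean) and -1.76 for Clec12a (SE 0.12, limma adjusted p = 1.27e-07), each seen in 6 of 6 samples against 6. Over all genes, 8.84% of 11346 were called at an adjusted p below 0.05, and 8.53% of the 11008 whose mean reached the minimum in both groups. Without a minimum 656 genes were called instead of 1003. Of the 6 relatives that reached it in both groups, Clec12a was the only 1 called. Without Ahr-/- F1 the number of genes called fell from 1003 to 623. Groups that do not overlap were found for 4.51% of all tested genes and for 2 of the 9 relatives, and since this contrast chose Clec4a4 nothing is read from either share. On log2 of the normalized count plus 1 the difference of Clec4b1 was 5.08, over 1.5 times as large, because the variance-stabilized scale compresses low counts.

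Among the relatives that were not called, Clec4a2 had a difference of 0.42 (SE 0.17, limma adjusted p = 0.139), with a 95% interval of 0.06 to 0.78. The difference of Clec4e was -0.48 (95% interval -1.34 to 0.38, limma adjusted p = 0.510) and that of Clec7a was -0.19 (95% interval -0.64 to 0.25). With single samples left out, Clec4e ran from -0.86 without WT M1 to -0.21 without Ahr-/- F2 and Clec7a from -0.30 without WT F3 to -0.03 without WT M3. With limma-voom Clec4a2 was at 0.65 and Clec4n at 0.21, and on log2 of the normalized count plus 1 Clec7a was at -0.30, each over 1.5 times as large and not called. Clec4n had a difference of 0.08 (95% interval -0.23 to 0.39) and Clec4d of -0.00499 (95% interval -0.46 to 0.45). The direction of the last pair turned when single samples were left out, and that of Clec4d also with limma-voom, at 0.0713.

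**Figure D2:**
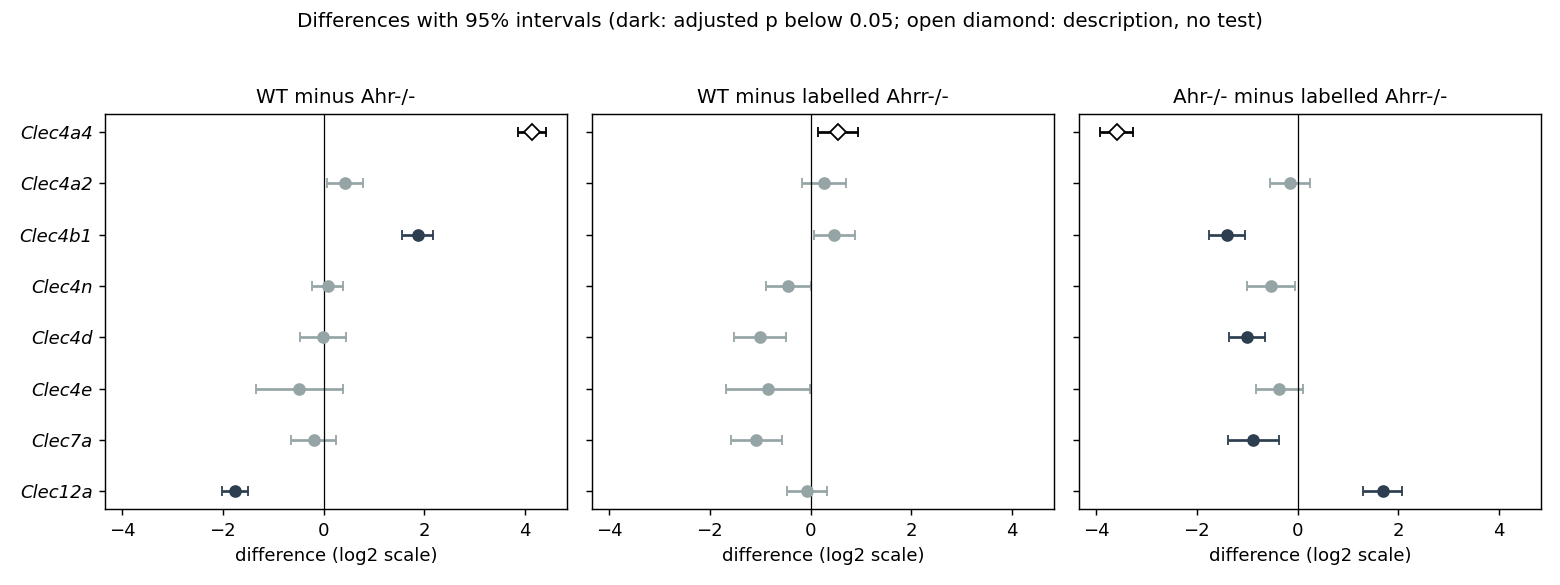
Difference between genotypes (log2 scale, horizontal axis) of the 8 receptor genes that passed the minimum mean, with 95% intervals, n = 6 in each group, from the limma fit across all genes. Dark points have an adjusted p below 0.05 and open diamonds, for Clec4a4, are a description with no test. Against Ahr-/- samples Clec4b1 passed the minimum only through the group in which it is high. Its dark points there are therefore not read as calls, and its adjusted p is given in the text without a minimum mean. Clec4b1 lies at 1.86 and Clec12a at -1.76 in WT minus Ahr-/-.

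Cell type markers were read beside this comparison. The mean value over the 10 eosinophil markers was 8.39 in WT (SD 0.16, n = 6) and 8.78 in Ahr-/- (SD 0.15, n = 6), an exact two-sided permutation p of 0.00216, the smallest this design can give, and 0.0173 adjusted over 8 lists. With the median over the list the difference was -1.18, about 3 times that of the mean, with the same exact permutation p. By group means this median lies between Prg2, at 7.03 in WT and 9.33 in Ahr-/-, and Epx, at 5.83 and 5.81. It therefore mostly follows Prg2. Summed normalized counts of that list ran from 24866 through 35018 to 38211 in WT and from 38503 through 44609 to 49555 in Ahr-/-, and 2 of its 5 tested genes were called, both lower in WT. These were the granule gene Prg2 at -2.30 (SE 0.17, limma adjusted p = 3.47e-07) and Alox15 at -0.58 (SE 0.15, limma adjusted p = 0.0230, and 0.0716 without a minimum mean, which ends its call), while Epx and Ear1 were below the minimum mean, at 10.4 and 6.19 normalized counts in Ahr-/-, close to their WT counts. The other 7 lists were not called by the exact permutation test between WT and Ahr-/-, with adjusted p from 0.387 to 0.939. Of their tested genes, 1 of 7 macrophage, 2 of 6 neutrophil and 1 of 10 epithelial genes were called, named here after their values were seen. Csf1r was at -0.49 (SE 0.10, limma adjusted p = 0.00693) and the chemokine receptor Cxcr2 at -0.65 (SE 0.16, limma adjusted p = 0.0198), both lower in WT. The collagenase Mmp8 was at 0.92 (SE 0.20, limma adjusted p = 0.0187 without a minimum mean, which it passed only through WT), and the mucin Muc2 at 1.12 (SE 0.20, limma adjusted p = 0.00174). Of the 10 epithelial markers, Fabp1, Apoa1 and Lyz1 had lower mean variance-stabilized values in WT than in Ahr-/- and the other 7, among them Epcam at 10.26 and 9.62 and Alpi at 7.85 and 7.84, had higher ones, with a list mean of 9.50 and 9.22. The part of cell composition in the differences of Clec4b1 and Clec12a was not tested.

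The comparison of WT with the samples labelled Ahrr-/- was named for the loss of the AHR repressor, although Ahrr was not lower in these samples. None of the 7 relatives tested was called by limma, 4 of the 7 had an unadjusted p below 0.05, and limma-voom on recovered counts also called 0. Over all genes, 853 had an unadjusted p below 0.05 and 0.0779% of 11546 were called, which is 9 genes, each lower in WT. The 9 called genes became 25 without the sample F1 labelled Ahrr-/-, 5 without F3 labelled Ahrr-/-, and 4 without M2, M3 or F2 labelled Ahrr-/- or without WT M2, M3, F1 or F2. No member had groups that do not overlap, and 0.459% of the genes tested had. Clec4a4 gets no test here, since the WT samples also served to choose it: its mean was 0.55 higher in WT on the variance-stabilized scale, with 3 of the 6 samples labelled Ahrr-/- below every WT sample. Clec4b1 had a difference of 0.47 (SE 0.19, limma adjusted p = 0.617), with 4 of 6 below.

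The largest differences of relatives in that comparison had the opposite sign. The difference of WT minus samples labelled Ahrr-/- was -1.07 for Clec7a (SE 0.24, limma adjusted p = 0.235) and -1.01 for Clec4d (SE 0.24, limma adjusted p = 0.323). Without WT M1, in which Clec4d is highest of the WT samples at 7.64, the difference of Clec4d was -1.23 with an adjusted p of 0.0201 from limma, and over all alternatives its adjusted p ran from 0.0201 to 0.675. Clec4e followed at -0.84 (95% interval -1.67 to -0.01) and Clec4n at -0.44 (95% interval -0.89 to 0.0030). Clec4a2 at 0.27 (95% interval -0.17 to 0.71) and Clec12a at -0.07 (95% interval -0.47 to 0.33) had intervals that include 0, and Clec4a2 was at 0.15 without the sample M3 labelled Ahrr-/-. On log2 of the normalized count plus 1 Clec4d was at -1.57, Clec4b1 at 0.84 and Clec4n at -0.74, and with limma-voom Clec4a2 was at 0.46, each over 1.5 times as large and not called.

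Cell type markers were also read beside the comparison of WT with samples labelled Ahrr-/-, and no list was called by the exact permutation test. The macrophage list of 11 genes averaged 6.63 in WT (SD 0.18, n = 6) and 7.27 in samples labelled Ahrr-/- (SD 0.43, n = 6), an exact permutation p of 0.0152 and 0.0606 after adjustment. The neutrophil list of 10 genes averaged 6.36 (SD 0.23) and 7.00 (SD 0.56), an exact permutation p of 0.0108 and 0.0606 after adjustment, n = 6 each. With the median over the list in place of its mean, the difference of WT minus these samples was -0.79 for macrophages (exact permutation p = 0.0325, adjusted p = 0.260) and -0.14 for neutrophils (exact permutation p = 0.870, adjusted p = 0.909). Summed normalized counts of the macrophage list ran from 817 through 1002 to 1087 in WT and from 953 through 1846 to 2070 in samples labelled Ahrr-/-, and those of the neutrophil list from 731 through 846 to 1144 and from 1744 through 2209 to 4913. Of their tested genes, 1 of 9 and 2 of 6 were called, each lower in WT. The other 6 lists had adjusted p from 0.0866 to 0.654 in the same exact permutation test, with epithelial means of 9.50 in WT and 10.35 in samples labelled Ahrr-/-, and Lyz1 at 13927 normalized counts in the latter.

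Of single markers chosen after their values were seen, S100a8 and S100a9, calcium-binding proteins abundant in neutrophils, had differences of -2.06 (limma adjusted p = 0.000667) and -2.10 (limma adjusted p = 0.000220), and Cd14 had -1.09 (limma adjusted p = 0.0367). Without a minimum mean the call of Cd14 was lost (adjusted p = 0.0645). In the female sample F1 labelled Ahrr-/-, the macrophage list was lowest of its group at 6.43, while Clec4d at 8.53, Clec7a at 9.08 and Clec4n at 7.65 were each the highest of all 18 samples. The neutrophil list of that sample, at 7.02 with a summed count of 3017, was second in its group to F2. In the male sample M1 labelled Ahrr-/-, Clec4d at 7.05, Clec7a at 7.52 and Clec4n at 6.11 were the lowest of their group, with a macrophage mean of 7.22 and a neutrophil mean of 6.78. The part of myeloid and other cells in these values was not tested.

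**Figure D3:**
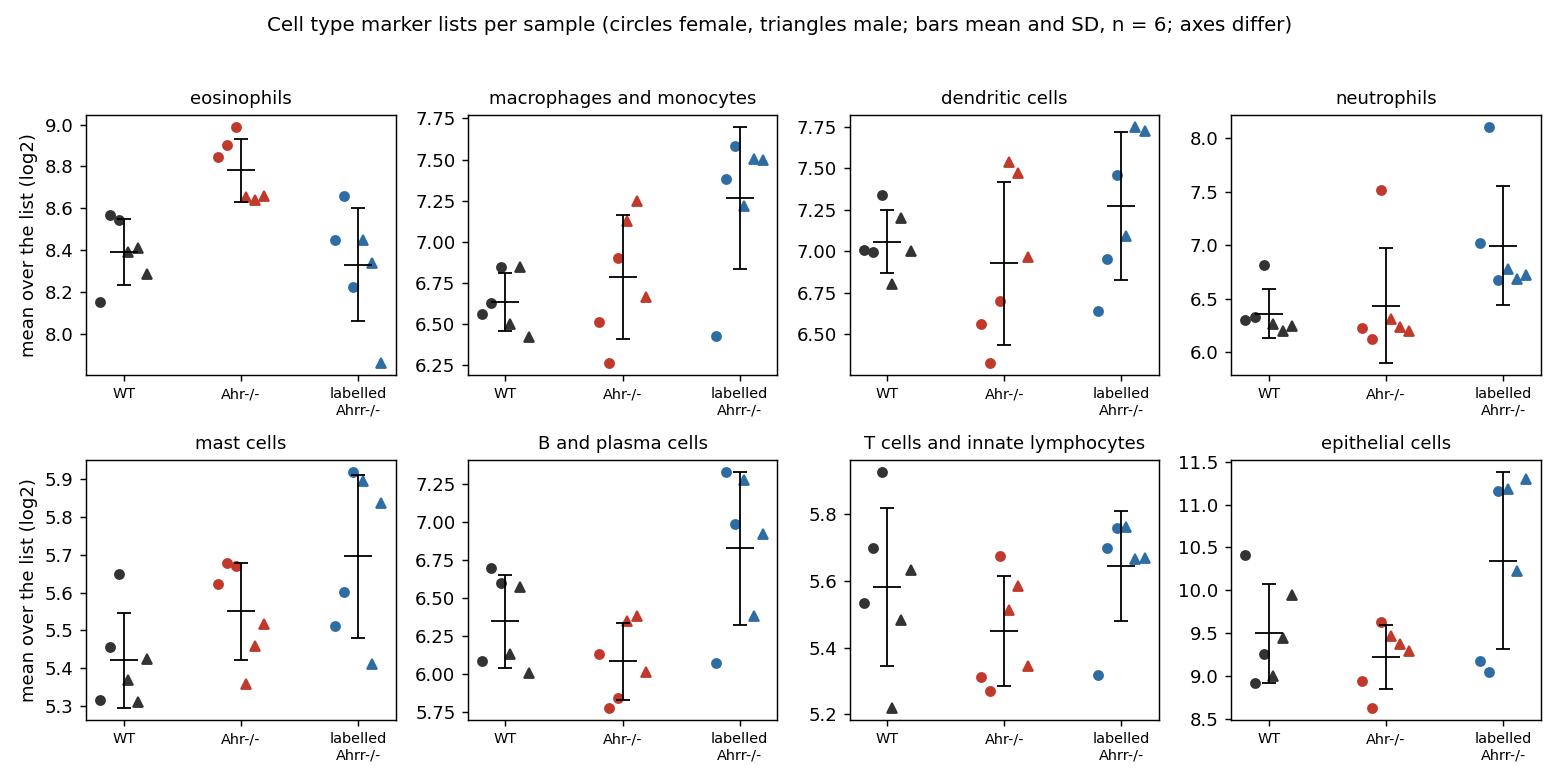
Mean variance-stabilized value (log2 scale, vertical axis, which differs between panels) over 8 cell type marker lists in each sample, by genotype, with circles for females, triangles for males and bars for the mean and SD of 6 samples. The eosinophil list is at 8.78 in Ahr-/- against 8.39 in WT, and the neutrophil list is highest in the female sample F2 labelled Ahrr-/-, at 8.11.

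Ahr-/- samples and those labelled Ahrr-/- were compared with each other, sharing their samples with the comparisons above. Clec4b1, Clec4d and Clec7a were lower and Clec12a was higher in Ahr-/- samples, where 14.9% of 11474 genes were called. Of the 6 relatives whose mean reached the minimum in both groups 3 were called, against 14.3% of 11012 such genes. Groups did not overlap for Clec4b1 and Clec12a, 2 of the 9 relatives, and for 4.61% of the 11474 genes tested, and since Clec4b1 passed the minimum only through the samples labelled Ahrr-/- nothing is read from these shares. The 1708 genes called became 1084 without a minimum mean, and 818, 839, 907, 933 and 970 without Ahr-/- M3, M1, F1, M2 and F2, and 923, 1001 and 2574 without the samples M3, F3 and F1 labelled Ahrr-/-. The difference of Ahr-/- minus samples labelled Ahrr-/- was -1.39 for Clec4b1 (SE 0.17, limma adjusted p = 0.000167 without a minimum mean) and 1.69 for Clec12a (SE 0.18, limma adjusted p = 3.81e-05). For Clec4d it was -1.002 (SE 0.17, limma adjusted p = 0.00188), with 5 of the 6 samples labelled Ahrr-/- above every Ahr-/- sample. For Clec7a it was -0.88 (SE 0.24, limma adjusted p = 0.0248), again with 5 of 6 above.

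The call of Clec7a was lost without Ahr-/- F1 (adjusted p = 0.0526), F2 (adjusted p = 0.0624) or M3 (adjusted p = 0.0663) and with limma-voom (adjusted p = 0.0521), the highest of its alternatives being 0.0663 and the lowest 0.00459. Clec4n had a difference of -0.52 (SE 0.22, limma adjusted p = 0.117), and without the sample M1 labelled Ahrr-/- it was -0.72 with an adjusted p of 0.0208. On log2 of the normalized count plus 1 the difference of Clec4b1 was -4.24, and with limma-voom that of Clec4d was -1.55 and that of Clec4n -0.97, each over 1.5 times as large. Clec4e at -0.36 (95% interval -0.83 to 0.11) and Clec4a2 at -0.15 (95% interval -0.55 to 0.25) were not called. With single samples left out, Clec4e ran from -0.55 without Ahr-/- F2 to -0.19 without Ahr-/- F3, and Clec4a2 from -0.26 without the sample F2 to -0.00255 without the sample M2 labelled Ahrr-/-. Clec4a4 gets no test here, since the Ahr-/- samples also served to choose it: its mean was 120-fold higher in samples labelled Ahrr-/- than in Ahr-/-.

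The eosinophil list was 0.45 higher in Ahr-/- than in samples labelled Ahrr-/- (exact permutation p = 0.00649, adjusted p = 0.0519, n = 6 each), with summed normalized counts of 14322 through 32034 to 38775 in the latter and 4 of its 5 tested genes called, all higher in Ahr-/-. With the median over the list the difference was 0.98 and was called (exact permutation p = 0.00216, adjusted p = 0.0173). That median again mostly follows Prg2, at 9.33 in Ahr-/- and 7.26 in samples labelled Ahrr-/-. Of the 4 genes Alox15 was not called without a minimum mean (limma adjusted p = 0.0840). The B-cell list, with its most abundant gene Jchain at 280 and 3296 normalized counts, differed by -0.74 (exact permutation p = 0.0173, adjusted p = 0.0693). Of its 3 tested genes Jchain was called, lower in Ahr-/- at -3.20 (limma adjusted p = 0.00708). The other 6 lists had adjusted p from 0.121 to 0.234 in the exact permutation test. Of their single genes, named after their values were seen, 2 of 9 macrophage genes were called lower in Ahr-/-, C1qb at -1.06 (limma adjusted p = 0.0466) and Cd14 at -0.66 (limma adjusted p = 0.00713). Without a minimum mean the call of C1qb was lost (adjusted p = 0.0732). Also called lower in Ahr-/- were 3 of 6 neutrophil genes, S100a8 at -1.73, S100a9 at -1.69 and Mmp8 at -1.58. Mmp8 passed the minimum only through the samples labelled Ahrr-/- (limma adjusted p = 0.000639 without a minimum mean). Among 9 dendritic-cell genes Irf8 was lower at -0.82 and Itgae higher at 0.47. Itgae passed the minimum only through Ahr-/- (limma adjusted p = 0.0348 without a minimum mean). Of 10 epithelial genes 3 were lower, Epcam at -1.12, Krt8 at -1.08 and Lyz1 at -1.91. The part of these cell types in the differences of Clec4d and Clec7a was not tested.

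The members lie in 2 clusters on chromosome 6. The larger spans 368 kb (GRCm38 chr6:122921848-123289871) and holds 9 protein-coding genes in the order Clec4a1, Clec4a3, Clec4a4, Clec4b1, Clec4a2, Clec4b2, Clec4n, Clec4d and Clec4e, 8 of them members. Clec4a4 and Clec4b1 are adjacent there, and the flanking Clec4a3 and Clec4a2 overlapped between all genotypes. Clec4b2, a DCAR-type gene whose coding sequence shares 82.1% of 620 aligned bases with Clec4b1, was 0.60 higher in WT than in Ahr-/- (SE 0.15, limma adjusted p = 0.0197), with 5 of the 6 Ahr-/- samples below every WT sample. All 6 samples labelled Ahrr-/- also lay below every WT sample. It was at 202, 117 and 119 normalized counts in WT, Ahr-/- and samples labelled Ahrr-/-, and its difference of 0.57 between WT and the latter was not called at SE 0.15 (limma adjusted p = 0.387).

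Outside that cluster, Foxj2, a forkhead transcription factor, was lower in WT than in Ahr-/- at -0.45 (SE 0.10, limma adjusted p = 0.00979). C3ar1, the receptor for complement C3a, had -0.44 (SE 0.17, limma adjusted p = 0.119) and Necap1, of clathrin-coated vesicles, 0.14. The vomeronasal receptor genes Vmn2r19 and Vmn2r20 on the other side were below the minimum mean, and Vmn2r21 is not in the table. C3ar1 was 0.59 higher in Ahr-/- than in samples labelled Ahrr-/- (SE 0.17, limma adjusted p = 0.0341).

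The smaller cluster spans 123 kb (GRCm38 chr6:129349783-129472785) and holds 6 protein-coding genes, of which Clec12a is at one end and Clec7a at the other. Between them, Clec1b, a receptor for podoplanin, averaged 5.71 in WT and 6.39 in Ahr-/-, without overlap, and passed the minimum mean only through Ahr-/-. Its difference of -0.68 (SE 0.15) had a limma adjusted p of 0.0257 without a minimum mean. Clec12b, Clec9a and Clec1a had 34, 199 and 250 counts in all 18 samples. Before Clec12a, Cd69, a lectin-like activation marker that retains lymphocytes in tissue, was 1.54 higher in WT than in Ahr-/- (SE 0.22, limma adjusted p = 0.000270), without overlap. Cd69 stood at 800, 229 and 666 normalized counts in WT, Ahr-/- and samples labelled Ahrr-/-. Olr1, a receptor for oxidized lipoprotein next to Clec7a, had a difference of -0.41 (SE 0.29, limma adjusted p = 0.417), while Clec2d and Gabarapl1 had 0.07 and -0.31 and Clec2m and Tmem52b were below the minimum mean.

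**Figure D4:**
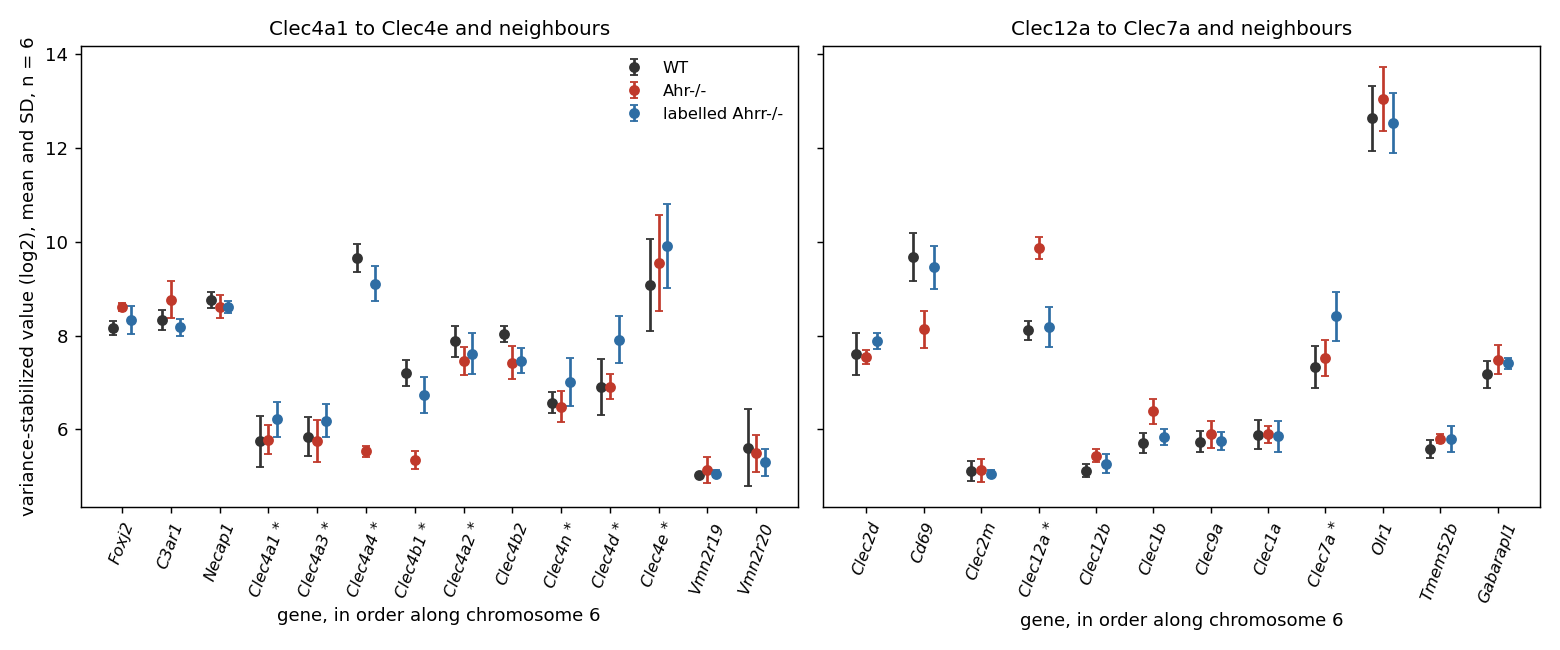
Variance-stabilized value (log2 scale, vertical axis; points are means and bars SD of 6 samples) of the genes of both clusters and their neighbours, in their order along chromosome 6, by genotype, with members marked by an asterisk. Clec4a4 and Clec4b1 drop in Ahr-/- to 5.53 and 5.34 while the genotypes overlap for Clec4a3 and Clec4a2 beside them.

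The genes whose values over the 18 samples were most like those of Clec4a4 were Dpep2, a membrane dipeptidase (Pearson r = 0.990), Aox2, an aldehyde oxidase (r = 0.987), Fcrls, an Fc receptor-like scavenger receptor (r = 0.984), Ahrr (r = 0.978) and Aox4, another aldehyde oxidase (r = 0.978). Such a likeness over 18 samples mostly follows the 3 genotypes and carries no test. Dpep2 had means of 9.96, 6.47 and 9.53 in WT, Ahr-/- and samples labelled Ahrr-/-, and Aox2 had 9.28, 5.40 and 9.10. Clec4b1 was most like Kif23, a kinesin of cell division (r = 0.965), and Clec12a most like Atp13a2, a lysosomal ATPase (r = 0.959), at 9.21, 10.54 and 9.21.

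The other members had different closest genes. Clec4e was most like Acod1, which makes itaconate (r = 0.948), and Clec4d most like Nlrp3, the inflammasome sensor (r = 0.898). Clec4n and Clec7a were each other's closest gene (r = 0.849). Clec4a1 was closest to the scavenger receptor Stab1 (r = 0.832), Clec4a3 to Tlr7 (r = 0.820) and Clec4a2 to the transcription factor Irf1 (r = 0.725), over 18 samples each. No member other than Clec4n and Clec7a had another member as its closest gene.

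Sex was compared within genotypes over all 18 samples. Clec4e was the only 1 of the 8 members tested that was called, lower in males by limma, where 3.06% of 11468 genes were called. In Ahr-/- females Clec4e was at 10.24, 11.22 and 9.56 and in Ahr-/- males at 8.73, 9.07 and 8.47, without overlap. In females labelled Ahrr-/- it was at 10.96, 10.31 and 10.84 and in males at 9.10, 9.14 and 9.10, again without overlap. In WT the sexes overlapped, with females at 8.45, 9.98 and 9.22 and males at 10.31, 8.77 and 7.67. The difference of male minus female was -1.16 (SE 0.31, limma adjusted p = 0.0446). Of the tested marker genes, 1 of 8 macrophage genes and the 1 mast-cell gene were called lower in males. These were Cd14 at -0.66 (limma adjusted p = 0.00792) and Kit at -0.94 (limma adjusted p = 0.0245). The median difference of male minus female over the 8 macrophage genes was 0.41, the other way from Cd14. Of the 6 neutrophil genes, Ltf was at -0.84 but passed the minimum only through females, so no call is read for it. Of 9 dendritic-cell genes 2 were called higher in males, the MHC class II genes H2-Aa at 1.48 (limma adjusted p = 0.0285) and H2-Ab1 at 1.34 (limma adjusted p = 0.0426). The part of these cell types in the difference of Clec4e was not tested.

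That call was fragile. Removing single samples ended it in 14 of 18 cases, with adjusted p up to 0.103, and it stood only without WT M1, WT F1, WT F3 or Ahr-/- F3. It was also lost without a minimum mean (adjusted p = 0.0935), with robust moderation (adjusted p = 0.0549) and without the F3 samples of WT and Ahr-/- (adjusted p = 0.0501), an alternative chosen after seeing the data. The 351 genes called became 595 and 733 without WT M1 and F1, 577 without the sample F3 labelled Ahrr-/-, and 142 to 211 without WT M3 or F2, Ahr-/- F1, F2, M1, M2 or M3 or the samples M3, F1 or F2 labelled Ahrr-/-. The lowest adjusted p, 0.00131, came without WT M1, and Clec4d was then called as well, at -0.60 (adjusted p = 0.0180). Acod1, the gene most like Clec4e, was also lower in males at -1.27 (SE 0.32, limma adjusted p = 0.0361). Differences of the other 7 members between the sexes ran from -0.46 for Clec4d (SE 0.18, limma adjusted p = 0.162) to 0.03 for Clec4n, and on log2 of the normalized count plus 1 that of Clec4d was -0.77.

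Whether the genotype difference depended on sex was tested by limma as an interaction. No gene was called, 0% of 11346 for WT and Ahr-/- and 0% of 11546 for WT and samples labelled Ahrr-/-, and 533 and 544 genes had an unadjusted p below 0.05. Of the members 1 and 0 had such a p, and limma-voom also called 0 of them. Clec4a2, named after its values were seen, averaged 8.07 in WT males and 7.24 in Ahr-/- males, and 7.70 and 7.68 in females (n = 3 each). Clec4e had interaction terms of 1.28 (SE 0.77, limma adjusted p = 0.954) and 1.29 (SE 0.72, limma adjusted p = 0.727). The sex difference of Clec4e is therefore not shown to differ between genotypes, in spite of the overlap in WT.

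**Figure D5:**
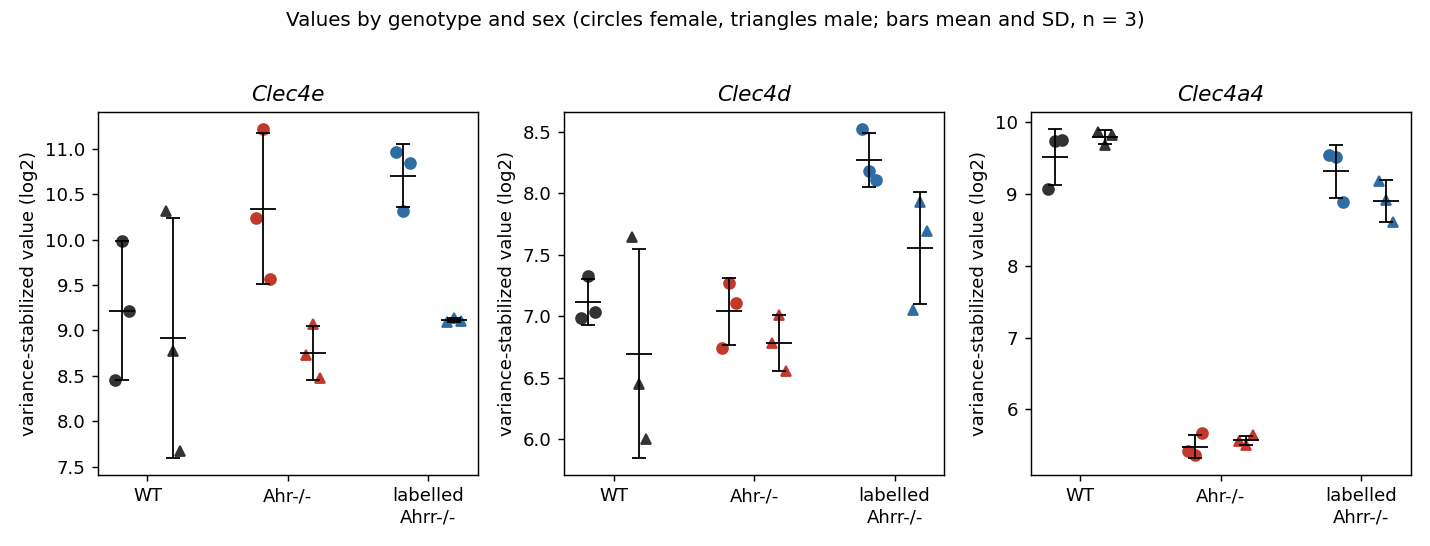
Variance-stabilized value (log2 scale, vertical axis) of Clec4e, Clec4d and Clec4a4 by genotype and sex, with circles for females, triangles for males and bars for the mean and SD of 3 samples. For Clec4e, females average 10.34 and males 8.76 in Ahr-/-, while both sexes overlap in WT.

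The proteins through which these receptors signal were read as a list of 29 genes: adaptors, kinases, the Card9 complex with its mediators, and inhibitory phosphatases and ubiquitin ligases. Between WT and Ahr-/-, 5 of the 28 tested were called by limma, 1 higher and 4 lower in WT, beside 8.84% of all genes. Without the F3 samples of WT and Ahr-/-, an alternative chosen after seeing the data, 3 were called. Vav2, a guanine nucleotide exchange factor, was 0.69 higher in WT (SE 0.12, adjusted p = 0.00191). Cblb, a ubiquitin ligase that marks activated lectin receptors and Syk for degradation, was lower in WT at -1.20 (SE 0.17, limma adjusted p = 0.000251), without overlap. The adaptor Hcst (DAP10) had -0.60 and the calcium-dependent transcription factor Nfatc2 -0.58, with limma adjusted p of 0.0103 and 0.00451. The median difference over the 28 was -0.13, against 0.00407 over all genes tested, and Fcer1g, Syk and Card9 were not called.

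Between Ahr-/- and samples labelled Ahrr-/-, 7 of the 29 signalling genes were called, 6 higher and 1 lower in Ahr-/-, beside 14.9% of all genes. Cblb was at 1.14 (SE 0.15, limma adjusted p = 0.000200), and Hcst at 0.67, Tec at 0.67 and Btk at 0.63 were among the others, Tec and Btk being kinases of 1 family. Vav2, the 1 lower gene, was at -0.50 and is named after its value was seen. Without a minimum mean the calls of Tec, Btk and Vav2 were lost, at adjusted p of 0.0712, 0.0514 and 0.0769. Without Ahr-/- M3 only 1 of the 29 was called. The number was 3 without Ahr-/- M1 or F2 or the sample M3 labelled Ahrr-/-, 4 without Ahr-/- F1 or M2 or the sample F3 labelled Ahrr-/-, and 4 with limma-voom, without a minimum mean or without sex in the fit. The median difference was 0.30, against 0.00261 over all genes tested. Between WT and samples labelled Ahrr-/-, 0 of the 29 were called by limma or limma-voom and 1 had an unadjusted p below 0.05. Between the sexes 0 of 29 were called by either, and 6 had an unadjusted p below 0.05, beside 2145 of all 11468 genes tested. Calls appeared without WT F1 (2) and without WT M1, Ahr-/- F3 or the sample F3 labelled Ahrr-/- (1 each).

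Of 55 other C-type lectin receptor genes in the table, 18 could be tested between WT and Ahr-/- and 7 were called by limma, 2 higher and 5 lower in WT, where 8.84% of all genes were called. Of the 15 whose mean reached the minimum in both groups 6 were called, and at a minimum of 3 above the lowest value, which Cd69 and Klra2 alone of the 7 reach, 2 were called. Beside Cd69, Clec4b2 and Clec1b above, Klra2 and Klra17 of the Ly49 family were lower in WT at -1.71 (SE 0.18, limma adjusted p = 1.41e-05) and -1.11 (SE 0.21, limma adjusted p = 0.00361). Klrb1f, an NKR-P1 receptor, was lower at -1.15 (SE 0.18, limma adjusted p = 0.000565), and Clec2i, of the family of ligands of such receptors, at -0.71 (SE 0.13, limma adjusted p = 0.00279). Groups did not overlap for any of these 4, and for 4.51% of all 11346 genes tested. Since the 4 were picked as called, nothing is read from this. The median difference of the 18 was -0.03, against 0.00407 over all genes tested.

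Between Ahr-/- and samples labelled Ahrr-/-, 7 of 17 of these other lectin receptors were called, 5 higher and 2 lower in Ahr-/-, where 14.9% of all genes were called. Of the 15 whose mean reached the minimum in both groups 6 were called, and at a minimum of 3 above the lowest value 2 were. Klra2 was at 1.63, Klrb1f at 1.54 and Klra17 at 1.35, Cd69 at -1.32 and Clec5a, a receptor that signals through the adaptors Tyrobp and Hcst, at -0.91 (SE 0.19, limma adjusted p = 0.00650). Between WT and samples labelled Ahrr-/-, 0 of 16 were called by limma or limma-voom and 2 had an unadjusted p below 0.05. Between the sexes 0 of 17 were called by either, and 7 had an unadjusted p below 0.05, beside 2145 of all 11468 genes tested. Calls appeared without WT M1 or the sample F3 labelled Ahrr-/- (2 each) and without WT F1, Ahr-/- F3 or the sample F2 labelled Ahrr-/- (1 each).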

How the data were processed

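Bulk RNA of sorted small-intestinal eosinophils was sequenced in 18 samples, 6 a genotype, as cDNA (NuGEN Ovation) on an Illumina HiSeq with single-end reads. The authors aligned reads to GRCm38 (STAR 2.5.2 and RSEM 1.3.0 per the labels; strand not stated), and transformed counts with DESeq2 in R 4.0.3, so that the deposited table holds variance-stabilized log2 values. From these, counts were recovered by inverting the transformation: 100% were whole within 0.0001, and their sums gave 3842977 to 12046933 counts a sample, which limits precision for low genes. Genes were matched to RefSeq by Entrez identifier for 22685 of 22708.

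Differences came from limma 3.58.1 in R 4.3.3 (lmFit, eBayes with a mean-variance trend, sex as covariate, or genotype where the sexes were compared) on the whole table, for genes with a mean at least 1 above the lowest value, with Benjamini-Hochberg adjustment and calls below 0.05. Clec4a4 was given no test of its difference between genotypes, and was tested between the sexes and for genotype by sex. The test was checked on simulated data. Marker lists were compared by exact two-sided permutation tests of the mean over the list, 8 lists a pair of genotypes. Identity and shared words of 75 bases were computed from GENCODE transcripts on GRCm38 with Biopython 1.88, and tables with Python 3.11.15, pandas 2.3.3 and numpy 2.4.6.

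The members and lists were chosen with earlier results of these data known. Named genes are the members, Ahr, Ahrr and 3 AHR targets, called genes of the lists (at most 5 a list and comparison), the genes closest to each member by Pearson correlation, neighbours on chromosome 6, the most abundant marker of lists and some list genes chosen after their values were seen. Promoter sequences are from RefSeq on GRCm38.p6. Alternatives covered the minimum mean, scaling, trend, covariate, replicate block, count scale, joint fit and leaving out each sample. limma-voom and leaving out both F3 samples were chosen after seeing the data. Amino acid sequences were not used here. Results of some list genes are not reported here.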

Additional observations from a re-analysis of the deposited data

Results flagged for a closer look

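In 6 samples of a genotype, a value was marked where its gap to the nearest other sample took up an unusually large part of the group's range. This marked 10 of 75 groups, while chance marks about 1 in 20.

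Among the receptors, Clec4a4 was low in WT F1 at 9.07, where the next sample stood at 9.68, and Clec4a3 was at the lowest value of the table, 5.02, in WT M3. Without WT F1 the difference of Clec4a4 between WT and Ahr-/- was 4.24 instead of 4.13, and between WT and samples labelled Ahrr-/- it was 0.68 instead of 0.55. Among AHR targets, Nqo1 was high in Ahr-/- M2 at 6.92, still below every WT sample.

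Among marker lists, the neutrophil mean was high in WT F3 at 6.82, in Ahr-/- F3 at 7.52 and in the sample F2 labelled Ahrr-/- at 8.11. In the sample F1 labelled Ahrr-/-, the macrophage mean was low at 6.43 and the T-cell mean low at 5.32. The number of genes with a count was high in WT F3 at 20244 and in Ahr-/- F3 at 19694. Without both of those samples Clec4a4, Clec4b1 and Clec12a differed between WT and Ahr-/- by 4.14, 1.76 and -1.77. The part of these samples in other values was not tested.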

How the results depend on the processing

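Depth limits Clec4a1, Clec4a3 and the Ahr-/- values of Clec4a4 and Clec4b1, and 6 samples a group limit small differences. Between WT and Ahr-/-, Clec12a kept direction and call in every alternative. Clec4b1 kept its direction in every alternative that tested it. Its call is read only from the fit without a minimum, since it passed the minimum only through WT. Same-numbered samples of different genotypes had correlations from -0.59 to 0.47. Where the cause is not in the alternative's own construction, the cause was not tested.

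Between WT and Ahr-/-, the 1003 genes called became 656 without a minimum, 553 in the fit of all 18 samples, 586 without both F3 samples and 623 to 1124 with 1 sample left out. Of the relatives that reached the minimum in both groups, Clec12a alone was called, also at a minimum of 3 above the lowest value. At that minimum Clec4b1 is no longer tested. Between WT and samples labelled Ahrr-/-, 9 genes became 4 without a minimum, with centring, on log2 counts, with the replicate block and with limma-voom, 5 at a minimum of 3 and with quantile normalization, 14 in the fit of all 18, and 4 to 25 with 1 left out, where 0 to 1 relatives were called. Between Ahr-/- and samples labelled Ahrr-/-, 1708 became 1084 without a minimum, 828 at a minimum of 3 and 994 without sex. They became 1106 with limma-voom and 818 to 2574 with 1 left out. Of the 3 relatives called that reached the minimum in both groups, Clec12a alone was called at a minimum of 3. With 1 left out, Clec12a and Clec4d were called in all 12 fits, Clec7a in 9 and Clec4n in 1. Clec4b1 was not tested there without any of 5 samples. Between the sexes, 351 became 163 without a minimum and 142 to 733 with 1 left out, with 0 members called without a minimum, with robust moderation and without both F3 samples, and 0 to 2 with 1 left out.

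Differences that were not called turned sign near 0. Between WT and Ahr-/- these were Clec4d at 0.0713 with limma-voom, 0.00929 without both F3 samples and -0.206 to 0.159 with 1 left out, and Clec4n, from -0.0118 to 0.136. Between WT and samples labelled Ahrr-/- it was Clec12a, from -0.225 to 0.0255. Between the sexes, Clec4n was at -0.00786 with centring, -0.00534 with quantile normalization, -0.0189 with limma-voom, -0.0565 without both F3 samples and -0.0316 to 0.157 with 1 left out. Clec4a4 was at 0.0917 on log2 counts, 0.0618 with limma-voom, 0.0164 without both F3 samples and -0.102 to 0.0535 with 1 left out. Clec4a2 was at 0.0577 with limma-voom and -0.123 to 0.0290 with 1 left out, Clec4b1 at -0.133 to 0.0332 and Clec7a at -0.183 to 0.0241.

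With the median over a marker list, 1 list, the eosinophils, was called between Ahr-/- and samples labelled Ahrr-/- at 0.98, a value that mostly follows Prg2. Signs turned for dendritic cells, at -0.0946 for WT minus Ahr-/-, 0.0910 for WT minus samples labelled Ahrr-/- and 0.186 for Ahr-/- minus the latter, for neutrophils at 0.27 between WT and Ahr-/-, and for eosinophils at -0.20 and T cells at 0.0196 between WT and samples labelled Ahrr-/-.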

Other observations

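Within genotypes, after each genotype's mean was removed, some members were correlated over the 18 samples. The 2 highest values were those of Clec4n and Clec7a, both receptors for fungal cell walls, with a Pearson r of 0.82, and Clec4d and Clec4e, which pair as receptors for mycobacterial glycolipid, of 0.78. The pairs did not stand apart. Clec4b1 had 0.69 with Clec4n, 0.66 with Clec4d, 0.64 with Clec7a and 0.54 with Clec4e, and Clec7a had 0.65 with Clec4d and 0.65 with Clec4a3. Clec4a4 and Clec4b1, low together in Ahr-/- samples, had an r of 0.23 within genotypes. Clec12a and Clec4a3 had -0.58. These values come from the same samples and carry no test.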
